A study of Mus musculus with 13 samples.

Results

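The axon guidance genes of the mouse were followed as a group: the Eph receptors and ephrins, the semaphorins with the plexins and neuropilins, the Slits with the Robo receptors, and the netrins with the UNC5 receptors and Dcc. Members were chosen by gene symbol alone. They comprise 71 of the 55232 genes in the promoter table, with 140 of its 77489 promoter rows, and 88 of the 57909 deposited H3K27me3 regions overlap at least 1 of those rows. The measurement was ChIP-seq in mouse embryonic stem cells (ESCs), undifferentiated cells of the early embryo grown in culture. The line was male, derived from crossing CAST with B6 and carried an RMCE recombination cassette at Rosa26 (Rosa26-RMCE). All groups shared that background, 3 days of doxycycline and fixation in 0.6% formaldehyde. Wild type (WT) cells gave 5 H3K27me3 and 2 total H3 libraries, and cells with both Safb and Safb2 knocked out (DKO) gave 4 H3K27me3 and 2 total H3 libraries. SAFB and SAFB2 are nuclear proteins that bind RNA. DKO replicate 1 for H3K27me3 was from clone 4, and all other DKO libraries, total H3 included, were from clone 13.

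H3K27me3 is the histone mark that Polycomb repressive complex 2 places on nucleosomes. In ESCs it typically covers promoters of developmental regulators that are silent or weakly transcribed, and these promoters are often rich in CpG dinucleotides. Growing axons read guidance cues through receptors on the growth cone. Ephrins bind Eph receptors at cell contacts, semaphorins act through plexins with neuropilins as co-receptors, Slits repel through Robo receptors, and netrins attract through Dcc or repel through UNC5 receptors. Most of these families also act outside the nervous system, for example in blood vessels and in epithelia.

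Promoter rows held between 798466 and 1427771 reads per H3K27me3 library, regions between 1818647 and 3134799, and regions of total H3 between 525847 and 736566. Levels are CPM (read counts scaled to the library size) after TMM scaling, computed apart for each table. The labelled cell type was checked on the mark itself. The 11 reference genes of Polycomb in ESCs (Hox genes, Pax6, Gata4 and others) had a median of 217 CPM, against 4.42 CPM for 8 ESC genes, 1.37 CPM for 5 housekeeping genes and 9.02 CPM for 8 neuron and glia markers. These medians include rows that share most of their bases with other rows and so collect few reads. Over rows free of overlap the median was 325 CPM for 6 reference genes, 4.77 CPM for 5 ESC genes and 15.9 CPM for 2 neuron markers (Map2 and Syp), and the 1 such housekeeping row, Hprt, had 4.86 CPM. Of the reference genes, Hoxa13 (0 CPM, in a row with 0 bases of its own), Nkx2-2 (4.42 CPM, 303 bases) and Gata4 (20.7 CPM, free of overlap) were low, and of the ESC genes Klf4 (102 CPM) was high. The deposited columns carry the tag b6, and no source used here says if the counts include the CAST as well as the B6 allele, so a CPM may stand for 1 allele or for both. The ChIP libraries do not measure the loss of Safb or Safb2. The label of WT replicate 4 and DKO replicate 3 holds the word Old, and that of WT replicate 5 and DKO replicate 4 the word New, with no meaning given, while the other 5 H3K27me3 libraries hold neither. WT replicates 1, 4 and 5 share a library name stem, and WT replicates 2 and 3 have other stems. Nothing in the labels says that replicates were separate cultures, so the p-values rest on differences among these libraries alone, and these may be technical. Leaving out DKO replicate 3 removed every region call among the guidance genes, and its values stand beside the results they touch.

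The promoters of the genes with called changes are shown here for their CpG content, which differs widely among them. Each line is the 250 bases before the RefSeq start site, 5′ to 3′ on the gene's strand, in assembly GRCm38.p6, with CpG in capitals. The first 4 belong to the genes whose H3K27me3 passed the test, and Robo4 is the contrast, a member with no H3K27me3 region.
Epha2: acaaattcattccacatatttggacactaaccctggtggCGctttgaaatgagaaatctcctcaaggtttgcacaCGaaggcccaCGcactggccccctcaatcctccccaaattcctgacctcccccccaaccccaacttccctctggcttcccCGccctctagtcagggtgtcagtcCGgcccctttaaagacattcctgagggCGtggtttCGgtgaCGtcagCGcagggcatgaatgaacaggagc
Slit2: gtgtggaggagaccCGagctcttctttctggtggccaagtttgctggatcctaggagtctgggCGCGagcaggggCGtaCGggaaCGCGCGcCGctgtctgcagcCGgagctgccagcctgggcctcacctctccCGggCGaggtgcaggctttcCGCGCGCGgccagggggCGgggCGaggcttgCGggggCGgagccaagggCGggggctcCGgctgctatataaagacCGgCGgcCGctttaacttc
Efna5: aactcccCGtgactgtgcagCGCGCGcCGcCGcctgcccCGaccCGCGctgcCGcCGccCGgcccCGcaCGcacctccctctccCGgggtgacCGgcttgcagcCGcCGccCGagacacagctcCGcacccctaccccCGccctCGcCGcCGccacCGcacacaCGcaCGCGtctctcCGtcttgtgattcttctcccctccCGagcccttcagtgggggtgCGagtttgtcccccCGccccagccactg
Ntng2: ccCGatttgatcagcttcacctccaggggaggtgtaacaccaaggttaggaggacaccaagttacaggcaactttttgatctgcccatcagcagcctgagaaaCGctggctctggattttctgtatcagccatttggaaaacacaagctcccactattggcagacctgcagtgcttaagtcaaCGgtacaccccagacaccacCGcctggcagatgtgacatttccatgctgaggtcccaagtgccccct
Robo4: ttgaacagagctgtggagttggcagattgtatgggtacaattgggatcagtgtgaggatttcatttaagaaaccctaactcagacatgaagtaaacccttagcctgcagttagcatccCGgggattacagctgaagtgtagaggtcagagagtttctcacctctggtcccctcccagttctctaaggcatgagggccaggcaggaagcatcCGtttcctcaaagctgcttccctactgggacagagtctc
The Epha2 bases lie at chr4:141300971-141301220 on the plus strand and hold 9 CpG, the Slit2 bases at chr5:47982905-47983154 on the plus strand and hold 25, and the Efna5 bases at chr17:62881318-62881567 on the minus strand and hold 32. The Ntng2 bases, at chr2:29248100-29248349 on the minus strand, hold 4 CpG, and the Robo4 bases, at chr9:37401722-37401971 on the plus strand, hold 2. The deposited regions are in build mm10, which has the same chromosome coordinates. All 250 bases of Efna5 and of Ntng2 lie inside the H3K27me3 region of the gene. The region of Slit2 begins 138 bp past the start site used here, inside the gene. That of Epha2 ends 700 bp before the start site, upstream of the gene. In the RefSeq gene annotation Slit2 begins further upstream, 2002 bp before its region, so the printed Slit2 bases lie inside the annotated gene.

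Most guidance genes carried H3K27me3 in these cells. At least 1 region overlapped a promoter row of 62 of the 71 genes (87.3%), against 11866 of all 55232 genes (21.5%). Genes with several start sites have more chances of an overlap, so the share was also taken over promoter rows that no other row overlaps: 32 of 46 member rows (69.6%) met a region, against 15.1% of all such rows. All 14 Eph receptors, all 3 Slits and all 5 netrin receptors had a region, as did 17 of 20 semaphorins, 8 of 11 plexins and neuropilins, 7 of 8 ephrins, 5 of 6 netrins and 3 of 4 Robo receptors. The 9 genes without a region were Efna4, Ntn5, Plxna3, Plxnb1, Plxnb3, Robo4, Sema3g, Sema4b and Sema4d. Several of these are known outside the nervous system, such as Robo4 in endothelium and Sema4d in lymphocytes. Among the 6 of them whose promoter row had no overlap, the level ran from 8.16 CPM (Sema4b) to 23.4 CPM (Sema3g), near the median of 13.5 CPM over all 35257 genes with such a row. Regions of both genotypes were pooled into 1 list by the authors: of the 88 member regions, 82 were in the authors' shared list, 6 in their DKO-specific list and 0 in their WT-specific list. Of the Eph receptors, Epha2 and Ephb3 had no region outside the DKO-specific list, and that of Ephb3 was too low in counts to be tested.

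The member regions were long and dense. Their median length was 4044.5 bp, against 687 bp over all regions and 1334 bp over the shared ones. Of the 88, 33 (37.5%) reached 5 kb, against 4.3% of all and 8.83% of the shared ones. A long region has more chances to meet a promoter row, and the lengths were not adjusted for that. Of all 57909 regions, 24049 lie on chromosome 6, against 8 of the member regions. The values over all regions were neither split by chromosome nor limited to promoters. Per kilobase their median level was 15.0 CPM, against 8.62 CPM per kb over all regions and 9.34 over the 28174 shared ones. The longest, 15460 bp, covered Epha1, an Eph receptor of epithelia, and the next, 15290 bp, covered Plxnd1, a semaphorin receptor of blood vessels. The densest belonged to Efna3, an ephrin anchored by a lipid (40.9 ± 3.35 CPM per kb, SD over the 9 libraries), and to Ntng2, a netrin-G that is likewise anchored to the membrane (39.0 ± 5.02 CPM per kb). Nrp1, a co-receptor of class 3 semaphorins, had 29.8 CPM per kb, Ntn1, the classic secreted netrin, 29.4, and Efna5, another lipid-anchored ephrin, 25.6. By role, the median per kilobase was highest for netrins (22.2 CPM) and for plexins and neuropilins (20.0 CPM), followed by netrin receptors (18.6), Slits (18.2), Robo receptors (14.4), Eph receptors (13.8), semaphorins (12.2) and ephrins (11.8). Most of the ranges overlapped: ephrins ran from 6.50 to 40.9 CPM per kb and semaphorins from 7.17 to 22.5. The exception was the netrins, whose lowest region (21.6 CPM per kb) lay above the highest of the Slits (21.5), by less than the spread between libraries.

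Counts in the promoter table reached the same genes unevenly. A promoter row spans 3001 bp, from 2000 bp before to 1000 bp after a start site, and the authors' counting left out reads that touch more than 1 row. Of the 140 member rows, 46 were free of overlap, 25 had no base of their own and 28 had no count in any library. Taking for each gene the row with the most reads, the highest levels were Ntn1 (314 CPM), Robo3 (281 CPM), a receptor of commissural axons, Plxnd1 (256 CPM), Plxna4 (227 CPM), a receptor of class 3 semaphorins, and Plxnc1 (222 CPM), the receptor of Sema7a. Ntn1 had 278 ± 62.7 CPM in WT (SD, n = 5) and 358 ± 57.4 in DKO (SD, n = 4), Robo3 301 ± 23.6 and 256 ± 33.8, and Plxnd1 267 ± 20.7 and 242 ± 28.5. Plxna4 had 237 ± 6.44 and 215 ± 28.1 CPM, and Plxnc1 215 ± 23.6 and 230.0 ± 36.7. These neighbours in the order do not differ beyond their spread.

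The lowest rows were those with few bases of their own, and the regions at the same genes held more reads than the rows. Sema5a, a transmembrane semaphorin, had 0 counts in all 9 libraries in a row with no base of its own, and a region of 1326 bp over its start held 25.7 ± 2.41 CPM in WT (SD, n = 5) and 27.8 ± 4.83 in DKO (SD, n = 4). The Epha7 row had 21 bases of its own and 0.44 CPM, while the region of 5561 bp at this receptor of ephrin-A ligands held 105 ± 7.72 CPM in WT and 108 ± 11.9 in DKO. The Ephb4 row, of a receptor that marks veins, had 83 bases of its own and 0.578 CPM, and its region of 926 bp held 9.49 ± 2.63 CPM in WT and 9.20 ± 3.61 in DKO. That region was weak for a member, at 10.1 CPM per kb against the member median of 15.0 and 8.62 over all regions. Over the 35 genes whose row was free of overlap, the median was 90.5 CPM, against 13.5 CPM for all genes of that kind. The regions carry no such loss, so the comparison of the genotypes below starts from them.

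**Figure D1:**
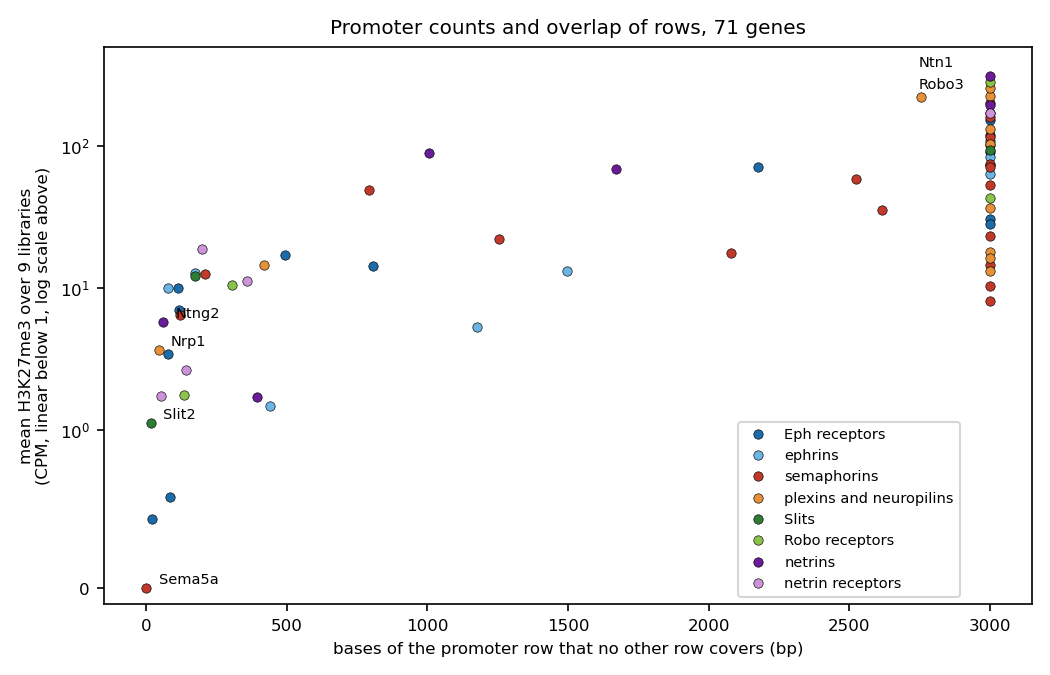
Mean H3K27me3 over 9 libraries (CPM, linear below 1 and log scale above) against the bases of the promoter row that no other row covers, 1 point for each of the 71 genes, coloured by role. Rows with few bases of their own lie low, Sema5a at 0, while the 35 rows free of overlap reach 314 CPM at Ntn1.

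Few guidance genes differed in H3K27me3 between DKO and WT cells: 3 strong regions had less of the mark and 1 weak region had more. Of 85 tested member regions, 3 fell (Ntng2, Efna5 and Slit2) and 1 rose (Epha2) at an adjusted p under 0.05 (edgeR quasi-likelihood F test, Benjamini-Hochberg over all 40418 tested regions). That is 4.71% of the members, against 4.03% called among all regions (2.16% rise, 1.88% fall). The figures for all regions lean on 2 chromosomes with shifts of their own. Chromosome 6 holds 15714 of the tested regions (71.9% lower, 2.1% called) and chromosome 11 holds 2720 (5.96% lower, 19.8% called). Of the tested member regions, 8 lie on chromosome 6 and 4 on chromosome 11. At an unadjusted p under 0.05 there were 21 member regions (24.7%), against 19.5% of all. The median log2 fold change (DKO minus WT) of the members was -0.07, against -0.02 for all regions, and 56 of 85 were lower, against 51.8% of all, but scaling by library totals in place of TMM left 42 of 85 lower and turned the calls to 6 higher and 1 lower (Ntng2). In these bulk samples, fewer cells with the mark and less of it per cell cannot be told apart.

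Ntng2 encodes netrin-G2, a membrane-bound relative of the netrins found at synapses. Its region, chr2:29247204-29255370 (8167 bp, mm10), covers the start of the gene and also overlaps the gene 6530402F18Rik. The 5 WT libraries held 369, 351, 361, 325 and 329.7 CPM, and the 4 DKO libraries 314, 276, 244 and 297 CPM. Every DKO library lay below every WT library. How often the groups separate in this way over all tested regions was not counted, for this region or for those below. The level fell by 0.30 on the log2 scale (SE 0.07, edgeR adjusted p = 0.00321).

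Efna5 encodes ephrin-A5, a repulsive cue that shapes topographic maps. Its region, chr17:62876184-62883057 (6874 bp), covers the start of the gene. WT libraries held 208, 178, 191, 195 and 188 CPM, and DKO libraries 170.4, 151, 150.5 and 156 CPM. The groups did not overlap, with clone 4 the highest of the DKO libraries. The level fell by 0.29 on the log2 scale (SE 0.08, edgeR adjusted p = 0.0169).

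Slit2 encodes a secreted midline repellent, the ligand of Robo1 and Robo2. Its region, chr5:47983293-47988820 (5528 bp), lies inside the gene. WT libraries held 134, 118, 143, 139 and 116 CPM, and DKO libraries 112, 105, 97.7 and 105 CPM. The groups did not overlap, though the lowest WT and the highest DKO library were close. The level fell by 0.31 on the log2 scale (SE 0.09, edgeR adjusted p = 0.0297).

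Epha2 encodes an Eph receptor with roles in epithelia and lens. Its region, chr4:141299486-141300521 (1036 bp), lies upstream of the gene and overlaps no RefSeq gene. It belongs to the authors' DKO-specific list, so a higher value in DKO is in part set by how the list was made, and among the 8441 tested regions of that list 5.4% rose and 0.0118% fell. WT libraries held 4.41, 3.54, 4.21, 7.02 and 4.40 CPM, and DKO libraries 8.14, 8.32, 13.0 and 10.6 CPM. All DKO libraries lay above all WT libraries at a level that was low for this group of genes. The level rose by 1.07 on the log2 scale (SE 0.26, edgeR adjusted p = 0.00473).

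**Figure D2:**
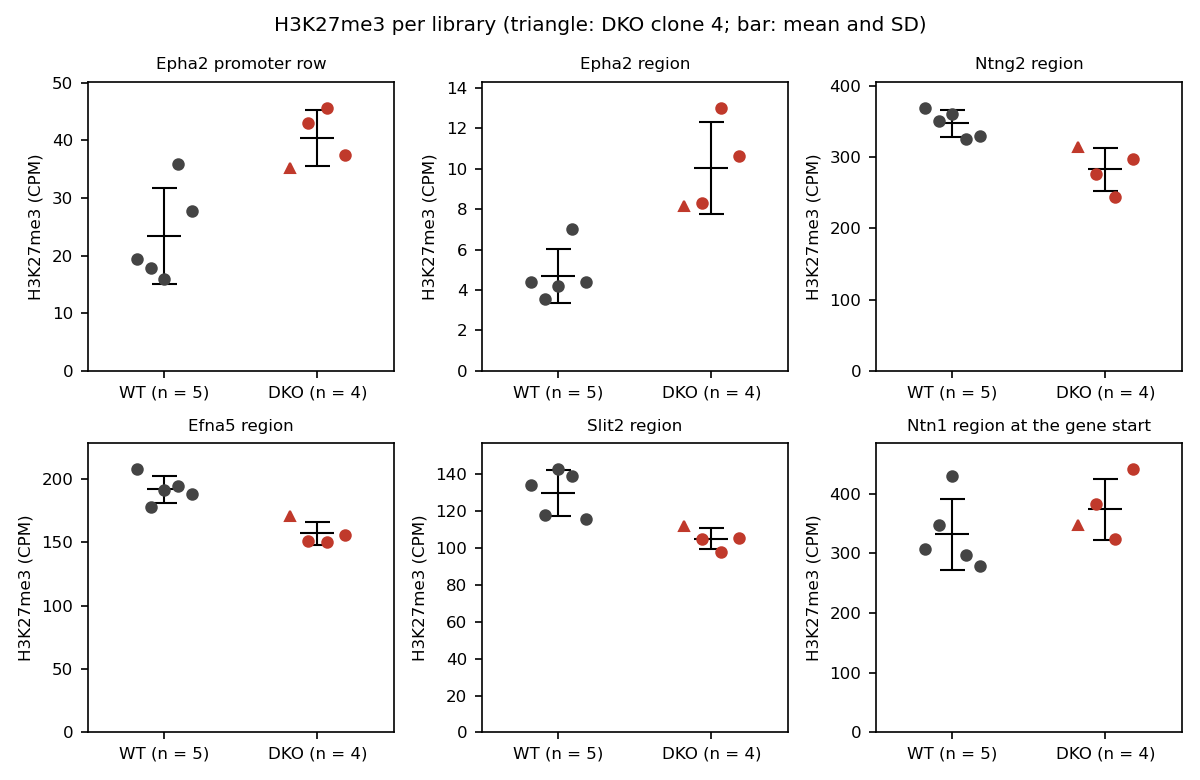
H3K27me3 (CPM, axes from 0) in each library for the Epha2 promoter row, for the 4 regions past the threshold and for the Ntn1 region at the gene start. Points are libraries (5 WT, 4 DKO, triangle for clone 4), bars mean and SD. The groups are apart at the 4 called regions and overlap at the Epha2 promoter row and at Ntn1.

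Without DKO replicate 3, the adjusted p was 0.0880 for Ntng2 (log2 fold change -0.22), 0.0905 for Efna5 (-0.26), 0.147 for Slit2 (-0.27) and 0.0758 for Epha2 (0.92). No member region was called within the libraries without Old or New (Ntng2 -0.29, Efna5 -0.26, Slit2 -0.29, Epha2 0.99), and within those with Old or New the same regions had -0.27, -0.31, -0.31 and 1.08 with no call. Efna5 was also lost without DKO replicate 2, and Slit2 without WT replicates 3 or 4 or DKO replicates 2 or 4. The number of member regions called was 2 without DKO replicate 2 and 7 without WT replicate 1. DKO replicate 1, from clone 4, was the DKO library nearest the WT libraries at Ntng2, Efna5, Slit2 and Epha2. The log2 fold changes without it were -0.35, -0.33, -0.34 and 1.16, each larger in size than in the main fit. The other DKO libraries all came from the same clone. The part of the clone in these values was not tested, as clone 4 gave only that library. With the WT libraries of 1 name stem, 4 member regions were called (Ntng2, Efna5 and 2 of Ntn1), and the adjusted p was 0.0569 for Epha2 (0.94) and 0.101 for Slit2 (-0.31). By DESeq2, 3 were called (Ntng2, Efna5 and Slit2), and Epha2, at 1.07 and an unadjusted p of 0.000846, was given no adjusted p.

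The 3 decreases lay at long and dense regions. All 3 were among the 33 member regions of 5 kb or more, of which 9.09% were called and 26 were lower (22 with library totals), with a median log2 fold change of -0.11. Over all 2489 shared regions of that length 18.7% were called (4.78% rise, 13.9% fall), 71.2% were lower and the median was -0.09. At 20 CPM per kb or more, 3 of 24 member regions were called (12.5%), against 26.2% of 1495 regions in all. In both classes the share called was smaller among guidance regions than among all regions, and that difference was not tested. Across the 85 member regions, the level per kilobase and the log2 fold change had Pearson's r = -0.35 and Spearman's rho = -0.26, a description across regions that share the same 9 libraries. The set includes weak regions of the DKO-specific list, such as that of Epha2 (6.83 CPM per kb), whose higher values in DKO are in part set by that list. The correlation without them was not computed. Over all 40418 tested regions r was -0.10.

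**Figure D3:**
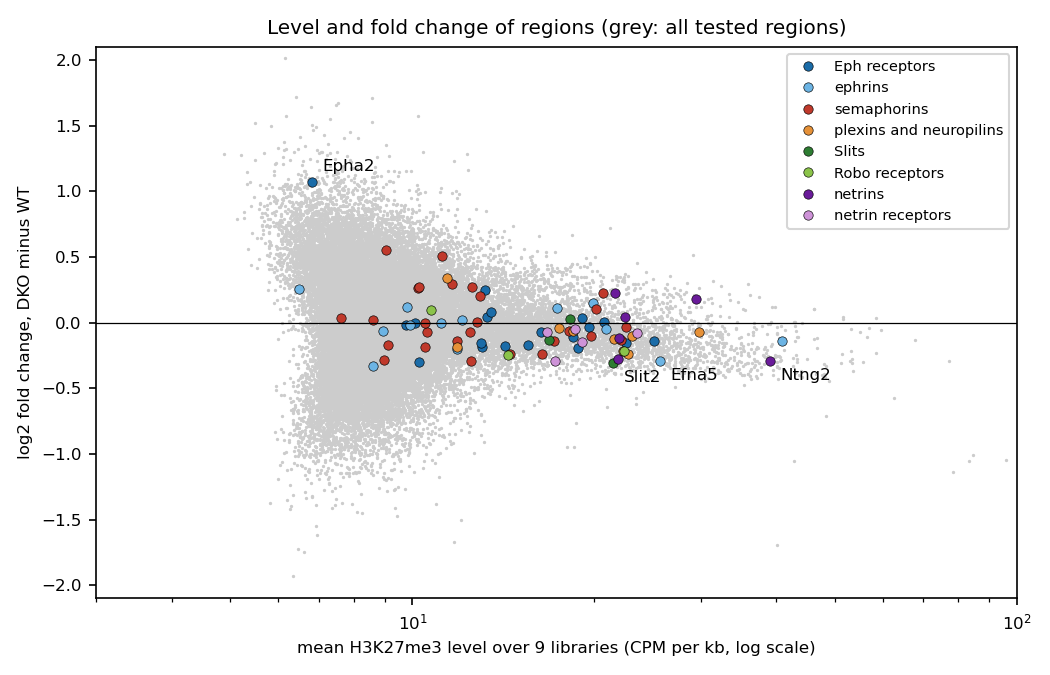
Log2 fold change (DKO minus WT) against the mean level over 9 libraries (CPM per kb, log scale) for tested regions, with those inside the axes in grey and the 85 member regions coloured by role. Ntng2, Efna5 and Slit2 sit among the dense regions, mostly below 0, and Epha2 among the weak and scattered ones.

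The promoter rows were compared in the same way, with Epha2 as the 1 call. Of the 140 member rows, 70 of 55 genes passed the filter on low counts, and 1 rose and 0 fell, which is 1.43% called, against 0.628% of all 32647 tested rows (0.438% rise, 0.19% fall). At an unadjusted p under 0.05 there were 8 member rows (11.4%), against 10.2% of all. The row that rose was again Epha2, at chr4:141299240-141302240, around its start and including the upstream region. WT libraries held 19.5, 17.9, 15.9, 35.8 and 27.7 CPM, and DKO libraries 35.2, 43.1, 45.7 and 37.5 CPM. WT replicate 4 lay above DKO replicate 1, and the other 3 DKO libraries above all WT libraries. The rise was 0.72 on the log2 scale (SE 0.20, edgeR adjusted p = 0.0461). The call was lost in 7 of 9 fits that left out 1 library (all but those without WT replicate 4 or DKO replicate 1), with values from 0.63 to 0.94, and the adjusted p was 0.0729 by DESeq2. Within the libraries without Old or New the log2 fold change was 1.12, and within those with Old or New 0.41, with no call in either. The rows of Ntng2, Efna5 and Slit2 had 59, 173 and 16 bases of their own and 5.79, 12.8 and 1.13 CPM. Only that of Efna5 was tested, at -0.40 (SE 0.29, edgeR adjusted p = 0.696).

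**Figure D4:**
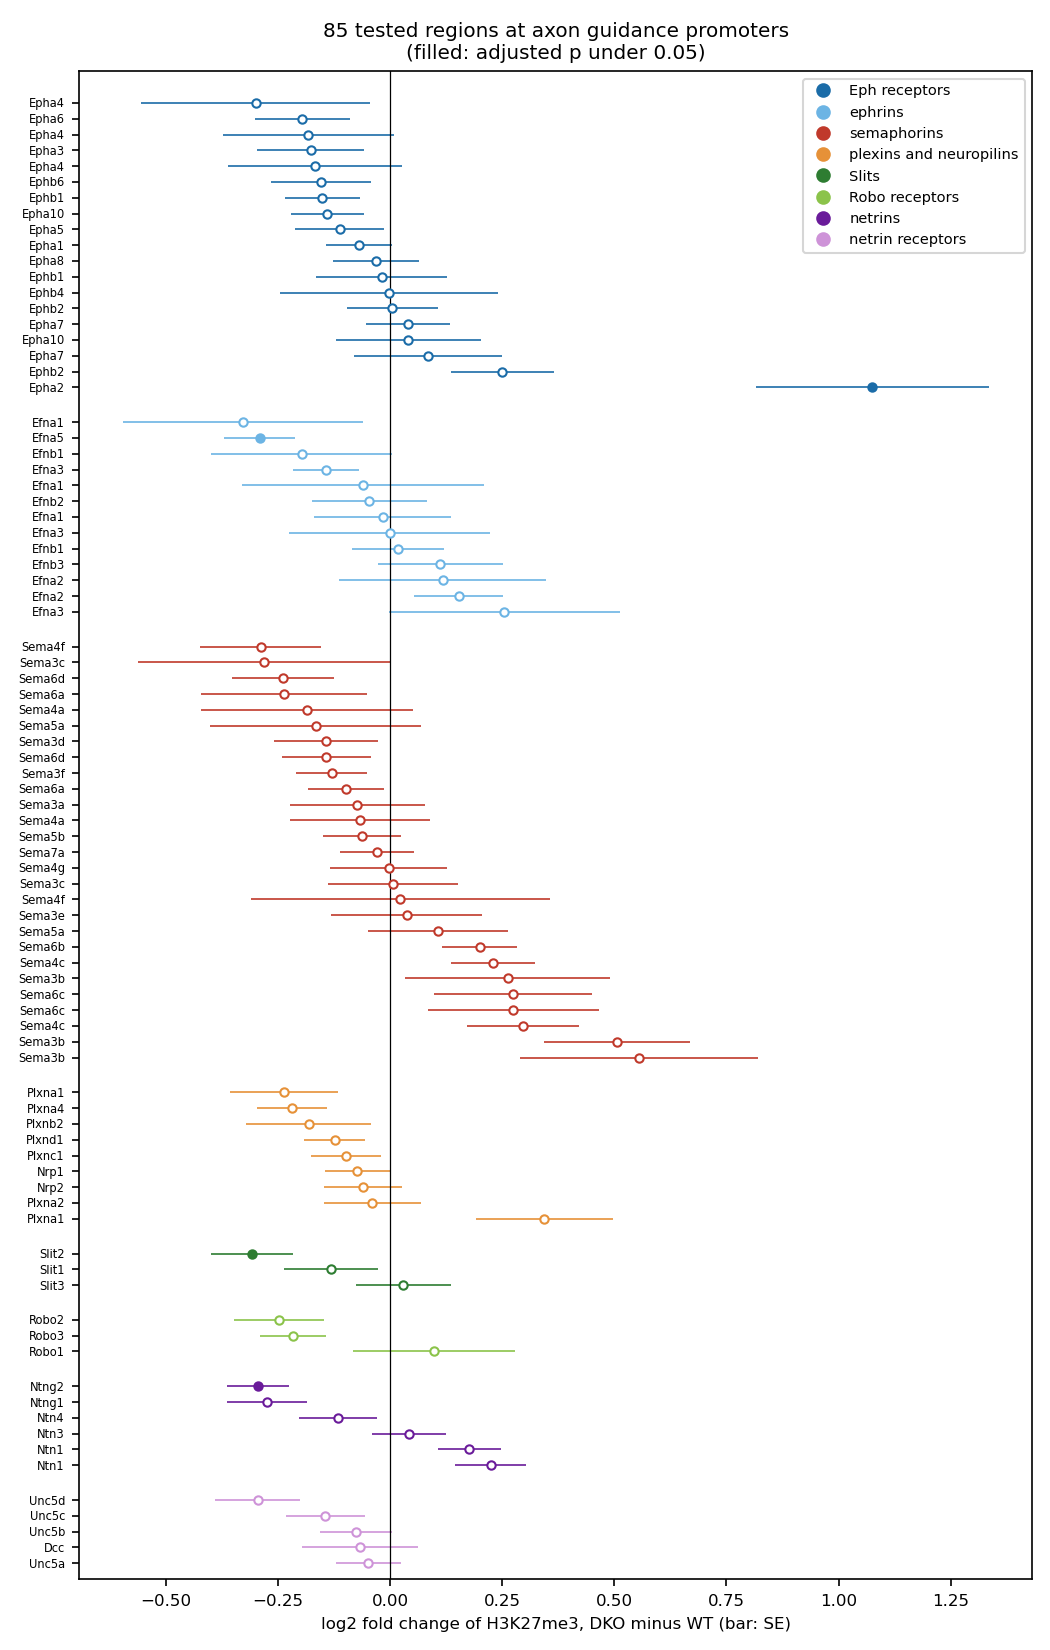
Log2 fold change of H3K27me3 (DKO minus WT, bar: SE) for the 85 tested member regions, ordered within 8 roles, with filled points at an adjusted p under 0.05. Epha2 stands at 1.07 and all others lie between -0.33 and 0.56, with Ntng2, Efna5 and Slit2 as the filled points below 0.

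Among the Eph receptors, 1 of 19 tested regions rose and 0 fell, and 13 were lower (10 with library totals). Epha2 apart, the log2 fold changes of their regions ran from -0.30, at a region of Epha4, to 0.25, at a region of Ephb2, an axonal receptor of ephrin-B ligands. The lowest tested promoter row was that of Ephb2, with 113 bases of its own, at -0.10 (SE 0.33, edgeR adjusted p = 0.957). The ephrins gave 1 fall (Efna5) in 13 tested regions and 0 rises. Efna3, the densest region of all 88, held 282, 225, 244, 249.5 and 257 CPM in WT and 224, 228, 221 and 240.3 CPM in DKO. The groups overlapped, and the log2 fold change was -0.14 (SE 0.07, edgeR adjusted p = 0.264). Its promoter row had 78 bases of its own and the highest log2 fold change of the tested ephrin rows, 0.43 (SE 0.33, edgeR adjusted p = 0.709).

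No region or row of a semaphorin was called, with 27 regions and 24 rows tested. Of the rows, 19 were higher and 5 lower under all 5 scalings tried, which rest on the same libraries, with a median log2 fold change of 0.17. In the main fit 20.8% were lower, against 51.9% of all tested rows. Some genes have several rows, and with 1 row per gene 13 were higher and 4 lower. Of the regions, in contrast, 12 were higher and 15 lower, with a median of -0.03, and 16 higher with library totals. The highest tested row among the 1-per-gene rows was that of Sema6a, a transmembrane semaphorin, at 14.6 CPM and 0.46 (SE 0.26, edgeR adjusted p = 0.561), and the lowest that of Sema4g at -0.14 (SE 0.15, edgeR adjusted p = 0.816). Closest to a call was a region of 2183 bp that overlaps a promoter row of Sema3b, a secreted repellent (chr9:107602483-107604665), chosen here after its values were seen. It held 21.6, 22.4, 22.1, 17.5 and 19.3 CPM in WT and 34.7, 31.9, 32.03 and 18.1 CPM in DKO. Of the DKO libraries 3 were above all WT libraries and replicate 4 was not. The log2 fold change was 0.51 (SE 0.16, edgeR adjusted p = 0.0521), and without DKO replicate 4 it was 0.69 (adjusted p = 0.00761).

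Plexins and neuropilins gave no call in 9 regions or 13 rows, and 8 of the 9 regions were lower (6 with library totals). The Plxna4 region of 9010 bp held 227, 221, 204, 209 and 210.0 CPM in WT and 201, 182, 168 and 186 CPM in DKO. The groups did not overlap, and the log2 fold change was -0.22 (SE 0.08, edgeR adjusted p = 0.0825). The regions of Plxnd1 and Plxnc1 had -0.12 (SE 0.07, edgeR adjusted p = 0.295) and -0.10 (SE 0.08, edgeR adjusted p = 0.498). Their tested rows ran from -0.35 at Nrp2 (SE 0.26, edgeR adjusted p = 0.707), a co-receptor of class 3 semaphorins, to 0.24 at Plxnb1 (SE 0.24, edgeR adjusted p = 0.798), a receptor of Sema4d.

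In the Slit and Robo families, 1 of 3 Slit regions fell (Slit2) and 0 of 3 Robo regions were called. Slit1 and Slit3 rows had -0.28 (SE 0.29, edgeR adjusted p = 0.819) and 0.13 (SE 0.14, edgeR adjusted p = 0.818). The Robo3 region of 10940 bp held 289, 242, 250.5, 256 and 265 CPM in WT and 220.1, 236, 199.8 and 244 CPM in DKO. DKO replicate 4 overlapped the WT libraries, and the log2 fold change was -0.22 (SE 0.07, edgeR adjusted p = 0.0708). The Robo2 region, of a receptor of Slit2, held 91.4, 88.4, 94.2, 96.7 and 91.3 CPM in WT and 76.2, 80.0, 70.1 and 85.5 CPM in DKO. Every DKO library was below every WT library, but the region was not called, at a log2 fold change of -0.25 (SE 0.10, edgeR adjusted p = 0.140). The rows of Robo2 and Robo1 had -0.42 (SE 0.32, edgeR adjusted p = 0.709) and 0.21 (SE 0.18, edgeR adjusted p = 0.751).

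Among the netrins, 1 of 6 regions fell (Ntng2) and 0 rose. Ntng1, the other netrin-G, lay just outside the threshold: WT libraries held 147, 124, 135, 141 and 141 CPM and DKO libraries 117, 118, 99.4 and 122 CPM. The groups did not overlap, and the log2 fold change was -0.27 (SE 0.09, edgeR adjusted p = 0.0514). Ntn1 went the other way. Its region over the gene start, chr11:68381400-68393312 (11913 bp), held 307, 347, 429, 298 and 279 CPM in WT and 348, 383, 324 and 441 CPM in DKO. The groups overlapped widely, at a log2 fold change of 0.18 (SE 0.07, edgeR adjusted p = 0.130). Its promoter row held 252, 302, 374, 249 and 211 CPM in WT and 346, 375, 288 and 425 CPM in DKO, at 0.38 (SE 0.11, edgeR adjusted p = 0.0605). WT replicate 3 (374 CPM) was close to DKO replicate 2 (375 CPM), and without it the row had 0.51 (adjusted p = 0.0134), and both regions of Ntn1 were called.

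All 5 regions of the netrin receptors were lower (4 with library totals), with 0 calls. Unc5d, a repulsive netrin receptor, came closest, with 128, 95.5, 112, 107 and 106 CPM in WT and 93.3, 89.7, 86.4 and 89.1 CPM in DKO. The DKO libraries were tightly grouped below all WT libraries, at a log2 fold change of -0.30 (SE 0.10, edgeR adjusted p = 0.0529). The Unc5b and Unc5a rows had -0.30 (SE 0.23, edgeR adjusted p = 0.711) and 0.01 (SE 0.12, edgeR adjusted p = 0.992). Dcc, the receptor that mediates attraction to netrin, had a region of 2652 bp at 45.1 ± 5.25 CPM in WT (SD, n = 5) and 43.3 ± 7.08 in DKO (SD, n = 4).

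The chromosome of a gene moved with its value. Ntn1, Efnb3 and Slit3 lie on chromosome 11, where all regions together had a median log2 fold change of 0.41 and all rows 0.29, with 19.8% of regions and 4.1% of rows called. The 4 member regions there had a median of 0.14 and the 4 member rows 0.27, all above 0, with 0 calls. With a per-library offset for chromosome 11 in the model, the Ntn1 region had -0.06 and its row 0.12, the Slit3 region and row -0.21 and -0.13, and those of Efnb3 -0.13 and -0.02. On chromosome 6, which carries the Rosa26 cassette, all regions had a median of -0.18 and all rows -0.09. The 8 member regions there (Epha1, Ephb6, Plxna1, Plxna4, Plxnd1 and Sema4f) had a median of -0.14 and the 7 tested rows -0.07, with 0 calls. Whether these chromosome-wide levels account for the values of the members was not tested beyond the offset. The 4 called regions lie on chromosomes 2, 4, 5 and 17.

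Total H3, the core histone that carries the mark, showed 0 calls in 72 tested member regions by edgeR, with 3 at an unadjusted p under 0.05, and 0 by DESeq2, against 0.0211% called among all 18938 tested regions (0.00528% rise, 0.0158% fall). With 2 libraries a group and fewer reads, these fits are less precise than those of H3K27me3. At the Ntng2 region, WT libraries held 136 and 146 CPM of total H3 and DKO libraries 147 and 142 CPM, a log2 fold change of 0.03 (SE 0.19, edgeR adjusted p = 0.999). At Efna5 they held 112 and 77.0 CPM in WT and 116 and 95.5 CPM in DKO (0.15, SE 0.22, edgeR adjusted p = 0.981), and at Slit2 77.9 and 61.2 CPM in WT and 70.9 and 58.0 CPM in DKO (-0.12, SE 0.27, edgeR adjusted p = 0.987). At the Epha2 region total H3 was 23.8 and 23.7 CPM in WT and 34.2 and 29.96 CPM in DKO. Both DKO values were above both WT values there, at 0.41 (SE 0.41, edgeR adjusted p = 0.951), and the part of total H3 in the Epha2 result was not tested. On chromosome 11, total H3 was also higher in DKO: 0.20 at both Ntn1 regions (SE 0.16 and 0.17), 0.48 at Slit3 (SE 0.29) and 0.27 at Efnb3 (SE 0.29). At the uncalled regions whose H3K27me3 groups did not overlap, total H3 had -0.20 (Plxna4), -0.14 (Robo2), -0.14 (Unc5d) and 0.19 (Ntng1). The 3 regions of total H3 at an unadjusted p under 0.05 were those of Robo3, Nrp2 and Dcc, all lower in DKO. Total H3 had -0.46 at Robo3 (SE 0.16, edgeR adjusted p = 0.636), where H3K27me3 had -0.22. At Nrp2 total H3 had -0.50 (SE 0.21, edgeR adjusted p = 0.715) and H3K27me3 -0.06. At Dcc total H3 was 38.9 and 31.6 CPM in WT and 2.63 and 28.1 CPM in DKO. The part of total H3 in these values was not tested either. The log2 ratio of mean H3K27me3 to mean total H3, a description across 2 antibodies scaled apart, ran over the member regions from -1.98 at Epha2 to 1.16 at Ntng2. Its median was -0.003, against -1.02 over all regions and -0.85 over the shared ones. Taken apart by genotype, the ratio was 0.47 in WT and 0.48 in DKO at Plxna4, and 0.24 and 0.49 at Robo3. It was lower in DKO at Robo2 (-0.03 and -0.12), Unc5d (0.46 and 0.31) and Ntng1 (1.05 and 0.59).

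Genes that work with these ligands and receptors were followed through a list of 50 partners and effectors, such as Rgma, Dscam, the contactins, the collapsin response mediators and the Srgap genes. Of the 32 with a tested promoter row, 0 rose and 0 fell, and 4 had an unadjusted p under 0.05, with a median log2 fold change of -0.02. Crmp1, which carries semaphorin signals to the cytoskeleton, had the highest level, 236 ± 23.9 CPM in WT (SD, n = 5) and 185 ± 25.8 in DKO (SD, n = 4), at -0.36 (SE 0.11, edgeR adjusted p = 0.124). The highest value was that of Cdk5r1, the activator of the kinase Cdk5, on chromosome 11, at 0.50 (edgeR adjusted p = 0.0656). The median level of the list was 35.1 CPM, against 23.4 CPM for the guidance genes counted the same way, and over rows free of overlap 88.1 and 90.5 CPM.

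The promoter windows of RefSeq (300 bases, 250 before to 50 after the start) were matched by symbol for 61 of the 71 genes; Plxna4, Plxna1, Unc5d, Sema3b, Sema3f, Ntn1, Efnb3, Sema6a, Dcc and Slit1 were not matched. The members' windows held a median of 21 CpG, against 7 over all 32851 windows, and 52.5% of them held 20 or more, against 26.5% of all. The 52 matched genes with a region had a median of 23 CpG and the 9 without one a median of 8 (range 2 to 36), a description of genes chosen by name. Efna5, with 38 CpG in its window, is among the 4.95% of all windows with as many, and Slit2, with 30, among 11.7%. Ntng2, with 6 CpG (56.4% of windows hold as many), had the second densest region of the group, and Epha2, with 10, nearly the least dense. A gene's main region was taken as the one with the largest overlap with 1 of its promoter rows. It need not cover the start: that of Ephb1 had 9.76 CPM per kb, and the Ephb1 region over the start 22.6. Over the 52 genes, the CpG count and the log2 level per kilobase of the main region had r = 0.25. The rank correlation was 0.30, a description across genes that share libraries and base composition.

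**Figure D5:**
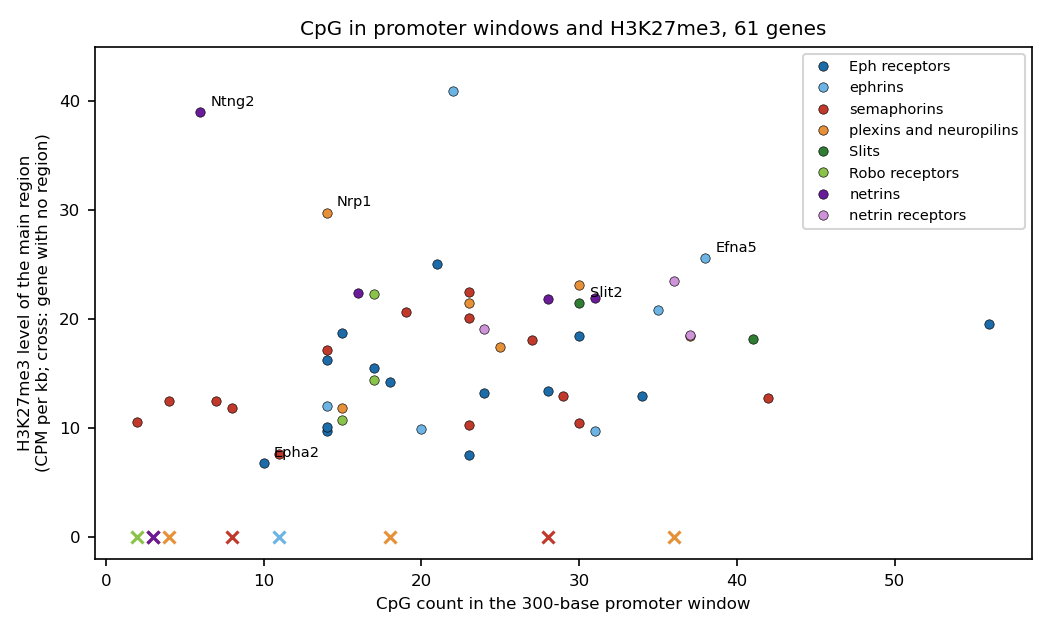
H3K27me3 level of each gene's main region (CPM per kb, mean over 9 libraries) against the CpG count of its 300-base promoter window, for 61 genes coloured by role, with crosses at 0 for the 9 genes that have no region. Ntng2 and Nrp1 lie high at few CpG, Efna5 and Slit2 high at many, and Epha2 low.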

How the data were processed

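The deposited tables hold raw read counts per library, with no normalization by the authors. Their columns carry the tag b6, per the file headers, and its meaning is not stated. Per the file headers, promoter counts were made with featureCounts 2.0.3, without strand and without assigning a read to several rows. Per the submitters' processing notes, Bowtie2, MACS2, bedtools, Subread and featureCounts were used with build mm10, with no roles given there. The rows of 1 outsized feature and 37 of chromosome M were left out. The authors' lists of shared, WT-specific and DKO-specific regions gave each region's class and held no score, and no source used here says how regions were called.

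Members were all promoter rows whose gene symbol belongs to the 8 role groups described, and regions that overlap such a row by at least 1 bp. The members, gene lists and tests were chosen with earlier results of these data known. Counts of WT (5) and DKO (4) libraries were compared over whole tables with edgeR 4.0.16 in R 4.3.3 (quasi-likelihood F test, two-sided, no covariate, filterByExpr with minimum count 10 and minimum total 15, TMM). The call threshold was a Benjamini-Hochberg adjusted p of 0.05 over all rows tested, and the SE is the size of the log2 fold change divided by the root of F. Total H3 (2 against 2) was fitted in the same way. DESeq2 1.42.0, other scalings, library subsets, a replicate block and leaving out each library were alternatives. The tests were checked on simulated data. Genes named with values were members past the threshold in either table, the 5 highest promoter rows and the 3 lowest among genes with a region, and in each role the highest and lowest tested log2 fold change. Unc5d, Sema3b, Efnb3, Nrp1, Dcc, Crmp1, Cdk5r1, the genes at the ends of a range, and the region values of Efna3, Ntng1 and Robo2 were chosen after their values were seen. Promoter windows came from RefSeq (GRCm38.p6), and gene starts and overlaps from its gene table. Figures used Python 3.11.15 with pandas 2.3.3 and matplotlib 3.10.9. The depth of each table limits precision: a region of few CPM, such as that of Epha2, rests on few reads.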

Additional observations from a re-analysis of the deposited data

Results flagged for a closer look

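Among 96 groups of 4 or 5 libraries checked, 1 library stood far from the rest of its group in 4 of them, about as many as chance gives at 1 in 20. At the Epha2 region, WT replicate 4 held 7.02 CPM, against a median of 4.40 CPM over the WT libraries, and still lay below all DKO libraries. WT replicate 4 also stood low at the Unc5a promoter row, with 138 CPM against a median of 175 CPM. At the Robo1 region, DKO replicate 3 held 14.3 CPM, against a median of 19.6 CPM over the DKO libraries. At the Slit2 promoter row, which has 16 bases of its own, WT replicate 3 held 3.66 CPM, against a median of 0.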

How the results depend on the processing

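The number of member promoter rows called (1) was 0 with no filter, with DESeq2, with an offset for chromosome 11 and in the libraries without Old or New, 2 with TMM factors taken without chromosomes 6 and 11 or with library totals (Epha2 and Ntn1), 3 with a term for the library set (Epha2, Ntn1 and Sema6b), and 0 to 1 without each library in turn. Member regions called (4) numbered 9 with that term, 0 in the libraries without Old or New, 2 in those with them (both of Ntn1), 8 with TMM factors taken without chromosomes 6 and 11, 7 with library totals and 0 to 7 without each library in turn. The deviations of same-numbered libraries from the group means correlated at -0.01 to 0.03 over promoter rows and -0.03 to 0.07 over regions. Differently numbered libraries ran from -0.15 to 0.14 over regions. Taken from group means, such values average near 0 over all pairs, so they cannot settle if same-numbered libraries were made together. With the replicate number as a block, 0 member rows were called (Epha2 adjusted p = 0.05001 by edgeR), the 4 region calls did not change, the Slit3 region turned to -0.010, and calls over all rows went from 205 to 109 for promoters and from 1630 to 963 for regions. Calls over all promoter rows were 134 with no filter, 389 with the library set term, 22 without Old or New, 57 with them, 90 with WT libraries of 1 name stem, 103 with the chromosome 11 offset and 50 to 253 without each library. Over all regions they were 725 by DESeq2, 146 without Old or New, 692 with them, 879 with 1 name stem, 916 with the offset and 623 to 2882 without each library. Rises made up 872 of the 1630 region calls, 527 of 1416 with TMM factors taken without chromosomes 6 and 11, and 1418 of 1878 with library totals. Total H3 calls over all regions went from 4 to 2 with no filter and 0 by DESeq2, and were 0 to 4 without each library. The median level of the member rows moved from 23.4 to 30.9 CPM when a gene's rows were summed. Log2 fold changes that changed sign were all of rows or regions that were not called, among them the promoter row of Efna5, whose region was called. With library totals 42 of 85 member regions were lower, against 56 in the main fit, so more regions changed sign than are listed here. Those listed belong to a part of the named genes. In promoter rows, they were Efna5 (0.29), Ephb2 (0.30), Plxnc1 (-0.0069) and Unc5a (-0.030) in the libraries with Old or New, Slit1 (0.018) in those without, Ephb2 (0.093) with 1 name stem, Sema4g (0.0025) with rows summed, and Slit3 (-0.13) and Efnb3 (-0.020) with the offset. In regions, they were Ntn1 (-0.061), Efnb3 (-0.13) and Slit3 (-0.21) with the offset, Efnb3 (-0.066) and Slit3 (-0.046) in the libraries without Old or New, and Slit3 (-0.0053) with TMM factors taken without chromosomes 6 and 11. Without each library in turn, the promoter rows of Ephb2 ran from -0.28 to 0.056, Plxnc1 from -0.017 to 0.17, Slit3 from -0.026 to 0.23 and Unc5a from -0.070 to 0.078, and the regions of Efnb3 from -0.0059 to 0.23 and Slit3 from -0.047 to 0.083. The cause of these changes was not tested. The fits in library subsets have fewer libraries.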
